A study of Mus musculus with 36 samples.

Results

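The matrix metalloproteinases (MMPs) described here are Mmp2, Mmp3, Mmp9, Mmp12, Mmp13, Mmp14 and Mmp19, and their inhibitors are Timp1, Timp2 and Timp3. These 7 proteases and 3 inhibitors were taken by gene symbol and are 10 of the 30205 genes measured. RNA was sequenced in 36 libraries of primary mouse bone cells, 6 in each of 6 groups: 3 cell types from wild-type control mice (WT) and from Mir324-null mice (null), which lack the gene of the microRNA miR-324. All mice were 20 weeks old. Bone marrow macrophages (BMM) had been expanded for 3 days in M-CSF, the macrophage growth factor, at 100 ng/mL and were then held for 5 days in M-CSF at 30 ng/mL. The osteoclast cultures (OC) started from the same macrophages and received, over the same 5 days, M-CSF at 30 ng/mL and RANK-L, the cytokine that drives osteoclast formation, at 50 ng/mL. The osteoblast cultures (OB) grew out of bone chips over about 6 weeks and were then kept for 18 days with 2 mM β-glycerophosphate and 50 µg/mL ascorbic acid. The labels give no strain and do not say whether the libraries of a group came from different mice, so the p-values measure the spread between these libraries, which may be technical.

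MMPs are zinc-dependent endopeptidases that cut collagens, elastin, proteoglycans and other proteins of the extracellular matrix, and most are made as inactive proenzymes that need a further cut to become active. TIMPs are small proteins that bind the active site of MMPs. In bone, osteoblasts and osteocytes are known for the collagenase Mmp13, and osteoclasts for the gelatinase Mmp9 and the membrane-bound Mmp14, so the family belongs to both bone formation and bone resorption. Transcript levels say nothing of proenzyme activation or of protein.

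Each library held between 14118972 and 26347581 estimated read counts. The deleted gene Mir324 was not analysed here, and the null label therefore has no check of its own in these libraries. The cell type labels were checked against marker lists by the summed level in CPM (counts scaled to the library total). The 7 osteoclast markers (Ctsk, Acp5, Atp6v0d2, Calcr, Ocstamp, Dcstamp and Oscar) summed to between 21910 and 23538 CPM in WT OC but to between 134.9 and 448.4 CPM in null OC, where 6 of the 7 were above the floor and Calcr was at 0 in every library. The name null OC is kept for these RANK-L cultures as labelled. The 6 macrophage markers were all present in null OC, at between 9950 and 13612 CPM. Osteoblast markers summed to between 54540 and 78225 CPM in WT OB and to between 97160 and 116309 CPM in null OB. The OB libraries also held macrophage markers, at between 2083 and 2449 CPM in WT and between 1781 and 1945 CPM in null, without overlap. Their osteoclast markers summed to between 3164 and 4003 CPM in WT (median 3805). In null OB they summed to between 3603 and 5253 CPM (median 4305), with overlap. The neutrophil, endothelial, adipocyte and lymphocyte lists each summed to at most 308.9 CPM in any library. In such bulk samples fewer cells of a type and less RNA per cell cannot be told apart.

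Several of the genes lie together on chromosome 9 (GRCm38, GENCODE M21). Mmp13 is at chr9:7272514-7283331, Mmp12 at chr9:7344381-7369499 and Mmp3 at chr9:7445822-7455975, all on the plus strand, and Mmp10, Mmp8, Mmp27, Mmp20 and Mmp7 follow. The other genes are on other chromosomes, with Mmp2 at chr8:92827291-92853420, Mmp9 at chr2:164940780-164955850, Mmp14 at chr14:54431612-54445364, Mmp19 at chr10:128790910-128800824, Timp1 at chrX:20870166-20874735, Timp2 at chr11:118301069-118355740 and Timp3 at chr10:86300372-86349506. RefSeq promoter windows (GRCm38.p6) were matched for 7 of the 10 genes, 8 windows in all because Mmp12 had a pair of start sites. The windows of Mmp13, Mmp12 and Mmp3 are shown because these 3 neighbours have different levels across the cell types and each holds a match to the AP-1 motif TGANTCA. The 120 bases before the start site are given on the plus strand, with matches in capitals. They lie at chr9:7272394-7272513 for Mmp13, at chr9:7347254-7347373 for the inner start site of Mmp12 and at chr9:7445702-7445821 for Mmp3.
Mmp13: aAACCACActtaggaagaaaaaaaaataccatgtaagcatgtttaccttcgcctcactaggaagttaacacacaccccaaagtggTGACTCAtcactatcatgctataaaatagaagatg
Mmp12: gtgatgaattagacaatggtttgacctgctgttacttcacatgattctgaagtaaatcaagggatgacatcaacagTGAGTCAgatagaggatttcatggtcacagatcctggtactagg
Mmp3: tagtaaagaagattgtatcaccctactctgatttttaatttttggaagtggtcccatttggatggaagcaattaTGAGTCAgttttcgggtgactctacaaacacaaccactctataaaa

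The AP-1 match began 35 bases before the start site in Mmp13, 44 in Mmp12 and 46 in Mmp3. The RUNX motif TGTGGTT, read on the other strand as AACCACA, began 119 bases before the start of Mmp13. Both motifs were searched on both strands of the 250 bases before each start site. Of 32851 such windows in the genome, 6.75% held TGANTCA and 4.4% held TGTGGTT. The other 5 windows (the outer start of Mmp12, Mmp14, Timp1, Timp2 and Timp3) held neither string of letters. A match is a description of the letters and no evidence of binding.

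The null mice lack miR-324, so the mature miR-324 sequences (RefSeq, GRCm38.p6, chromosome 11) and their matches among the 10 genes are shown next. Capitals mark the seed, bases 2 to 8, in the microRNA and its complement in the target.
miR-324-5p: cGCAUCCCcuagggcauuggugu
miR-324-3p: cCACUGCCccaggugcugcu
Mmp2 site for 5p: cccaccctagGGGATGCttgga
Mmp2 site for 3p: cctggcatggGGCAGTGgggta

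Among the longest 3′ UTRs annotated for the 10 genes, that of Mmp2 held 1 match to each seed, at base 214 for miR-324-5p and base 378 for miR-324-3p of 755 bases. The other 9 genes held no match to either. Over all 21022 genes with a 3′ UTR, 7.39% held a match to the 5p seed and 12.7% to the 3p seed. These are matches of letters only.

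Without RANK-L, null macrophages carried more Mmp9 and Mmp14 transcript than WT macrophages, at 105.0 ± 14.3 against 0.288 ± 0.18 TPM for Mmp9 and 42.8 ± 6.75 against 0.893 ± 0.33 TPM for Mmp14 (SD, n = 6 libraries). With RANK-L, null cultures carried less Mmp9 than WT (149.5 ± 30.1 against 4584 ± 582.6 TPM) and more Mmp12, Mmp13, Mmp2, Mmp19, Timp1, Timp2 and Timp3. In osteoblast cultures Mmp9 was higher in null and the 3 TIMPs lower, although each TIMP call was lost in at least 1 other fit.

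Levels are given in TPM, transcripts scaled for their length and for the library total, which can be compared between genes. Tests used the counts: a log2 fold change of 1 is a doubling, its standard error (SE) is given after ±, and a gene was called higher or lower when edgeR's quasi-likelihood test gave a Benjamini-Hochberg p, adjusted over all genes tested, under 0.05. Mmp3 was too low to be tested in BMM and OC. In BMM, 6 of the 9 genes tested were higher in null than in WT and 1 was lower, beside 27% of all genes tested called higher and 25.4% called lower. In OC, 7 of 9 were higher and 1 lower, beside 32.4% and 33.1% of all genes. In OB, 2 of 10 were higher and 4 lower, beside 15.5% and 16.9%. The median log2 fold change of the genes tested was 1.91 in BMM, 2.30 in OC and -0.04 in OB, against 0.02, -0.03 and 0.002 over all genes. In either direction 52.3% of all genes were called in BMM, 65.6% in OC and 32.5% in OB, so the number of calls by itself says little about the family.

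**Figure D1:**
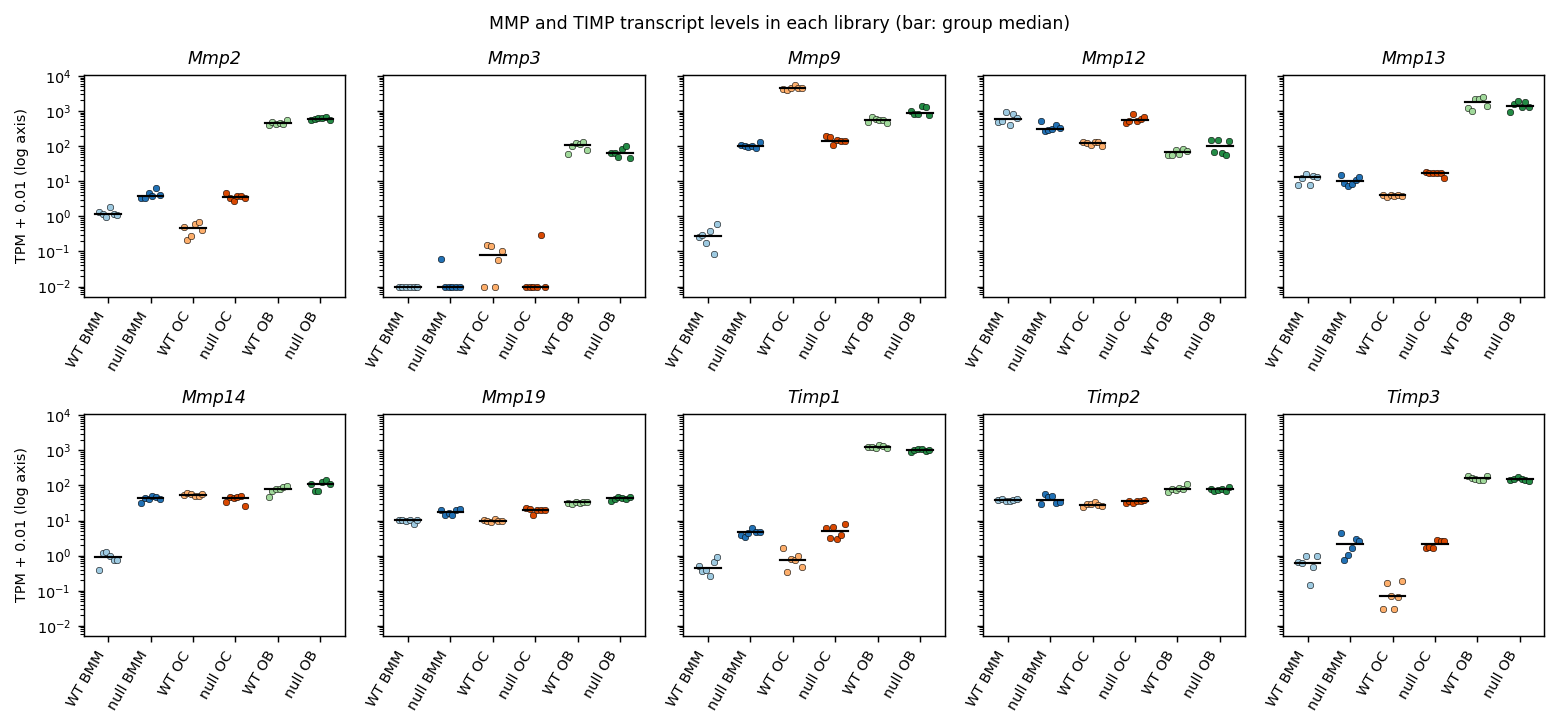
TPM + 0.01 of each gene on a log axis for the 36 libraries, by group (6 libraries each, bar at the group median). Mmp9 runs from below 1 TPM in WT BMM to between 3881 and 5650 TPM in WT OC, Mmp13, Timp1, Mmp2, Timp3 and Mmp3 are high in OB libraries, and Mmp12 is high in macrophages and in null OC.

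**Figure D2:**
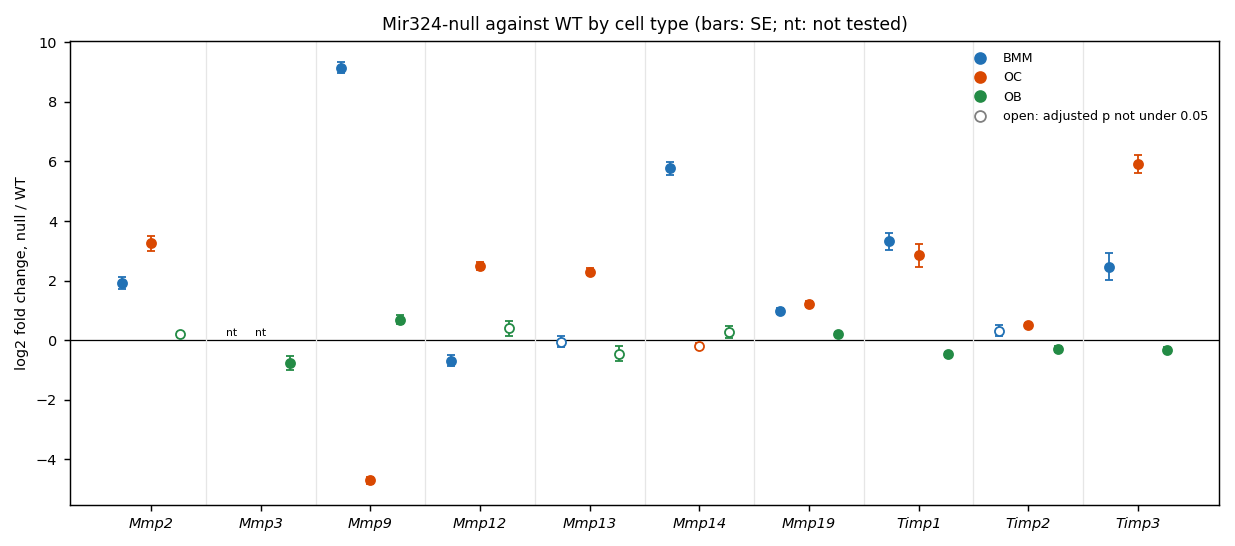
Log2 fold change of null against WT (points, ± SE) for each gene in BMM, OC and OB, from edgeR fits on 12 libraries each. Filled points were called at an adjusted p under 0.05. Mmp9 is the one gene called higher in BMM and lower in OC, and the OB points lie between -0.75 and 0.69.

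Mmp9, gelatinase B, had the widest span of levels. Its TPM ranged from 0.0726 to 0.580 (median 0.269) in WT BMM, from 90.3 to 131.6 (median 103.5) in null BMM, from 3881 to 5650 (median 4524) in WT OC and from 106.6 to 188.3 (median 143.7) in null OC. In OB it ranged from 471.5 to 665.0 (median 545.8) in WT and from 766.9 to 1425 (median 897.3) in null. The ranges of WT and null did not overlap in any of the 3 cell types, and null BMM and null OC overlapped each other. Null BMM thus stood far above WT BMM while null OC stood far below WT OC. Mmp9 was higher in null BMM by 9.15 ± 0.20 on the log2 scale (edgeR adjusted p 1.1e-14), with 2 to 12 counts in each WT BMM library. The WT BMM libraries held 37 Mmp9 counts in all, and the ratio of mean CPM was 552.7, with an exact Poisson 95% interval of 401.0 to 785.0 that covers counting error only. In OC the gene fell by 4.70 ± 0.11 (edgeR adjusted p 2.4e-15), a 26.0-fold lower level in null. In OB it rose by 0.69 ± 0.16 (edgeR adjusted p 0.0053) and stayed past the threshold in every alternative fit. A 416-base transcript, Mmp9-203, held between 17.2% (WT BMM) and 24% (WT OC) of the Mmp9 TPM. Osteoclast markers in BMM summed to between 86.6 and 125.2 CPM in WT and to between 76.7 and 89.6 CPM in null. The sum joined markers that went opposite ways. Of 4 tested, 1 was higher and 2 were lower in null, beside 27% and 25.4% of all genes. Acp5 was 6.55 to 9.79 CPM in WT and 35.0 to 43.9 CPM in null. Ctsk was 6.52 to 9.89 CPM in WT and 2.68 to 5.50 CPM in null. Neutrophils also carry Mmp9; the 8 neutrophil markers summed to between 0.143 and 0.396 CPM in WT BMM and to between 6.51 and 16.9 CPM in null BMM, almost all of it S100a8, with S100a9, Ltf, Elane and Retnlg at 0 in every null BMM library. The part of other cells in the Mmp9 levels was not tested.

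Mmp2, gelatinase A, which Mmp14 cuts into its active form, was an osteoblast-culture gene with low levels in the myeloid groups. TPM ranged from 0.947 to 1.81 (median 1.17) in WT BMM and from 3.24 to 6.55 (median 3.86) in null BMM. TPM in WT OC ranged from 0.204 to 0.700 (median 0.446) and in null OC from 2.80 to 4.68 (median 3.48). Every null BMM and null OC library lay above every WT library of its cell type. Mmp2 was higher by 1.91 ± 0.20 in null BMM (edgeR adjusted p 9.5e-07) and by 3.25 ± 0.25 in null OC (5.9e-09). In OB its TPM was 409.8 to 573.9 (median 448.7) in WT and 563.6 to 681.9 (median 601.0) in null, with overlapping ranges. The fitted OB difference of 0.20 ± 0.08, a 1.15-fold change on the count scale, missed the threshold (edgeR adjusted p 0.061). It was called with DESeq2 (adjusted p 0.041) and with an offset for average transcript length (0.047). The other 7 of 9 settings did not call it (adjusted p up to 0.27). Over the 9 settings the log2 fold change was 0.13 to 0.23. On leaving out 1 library it was called in 2 of 12 fits. Mmp2 is the gene with both seed matches printed above, and its fold changes are given here beside them without any inference.

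Mmp13, collagenase-3, was on average the most abundant of the 10 transcripts in OB. Timp1 exceeded it in WT OB replicate 2 and Mmp9 in null OB replicates 1 and 4. TPM ranged from 1004 to 2558 (median 1790) in WT OB and from 933.2 to 1984 (median 1436) in null OB. These ranges overlapped, and the difference of -0.45 ± 0.25 was not called (edgeR adjusted p 0.20). In the myeloid groups it ranged from 7.60 to 16.5 TPM (median 12.9) in WT BMM, from 7.51 to 15.2 (median 9.83) in null BMM, from 3.45 to 4.13 (median 3.95) in WT OC and from 12.4 to 18.9 (median 17.1) in null OC. WT OC stood below the other 3 myeloid groups without overlap. The BMM difference was -0.04 ± 0.18 (edgeR adjusted p 0.86), whereas in OC Mmp13 was higher in null by 2.30 ± 0.10 (4.8e-12).

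Mmp12, macrophage elastase, was the most abundant of the 10 transcripts in BMM of both genotypes and in null OC. It ranged from 413.0 to 919.6 TPM (median 593.9) in WT BMM, from 265.8 to 513.0 (median 311.6) in null BMM, from 104.1 to 130.3 (median 125.3) in WT OC and from 462.8 to 843.3 (median 561.9) in null OC. The lowest group means of Mmp12 were in OB, at 56.5 to 81.7 TPM (median 65.9) in WT and 56.0 to 148.9 (median 101.8) in null. WT OC lay below both BMM groups and below null OC, and the OB genotypes overlapped. Null OB replicates 1, 3 and 6, at 148.9, 145.0 and 137.3 TPM, lay above every WT OC library. Against WT, the log2 fold change of null BMM was -0.69 ± 0.18 (edgeR adjusted p 0.0059), a fall with ranges that overlapped. In OC Mmp12 was higher in null by 2.49 ± 0.15 (5.0e-10), a 5.61-fold difference. The OB difference of 0.41 ± 0.25 was not called (edgeR adjusted p 0.24). Between 62.3% and 70.1% of Mmp12 TPM in each group was assigned to a single transcript annotated as a target of nonsense-mediated decay, Mmp12-204, so the gene's sum is not a measure of coding transcripts alone.

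Mmp3, stromelysin-1, which can activate other MMPs, was detected at more than a few counts in OB libraries only. It had 0 counts in every WT BMM library, at most 1 in null BMM, at most 3 in WT OC and at most 5 in null OC. In OB its TPM ranged from 58.9 to 127.5 (median 106.7) in WT and from 46.1 to 101.1 (median 62.3) in null, with overlapping ranges. Set against a floor of 3 counts per library, Mmp3 was at least 702-fold higher in WT OB than in WT BMM. It was lower in null OB by a log2 fold change of -0.75 ± 0.24 (edgeR adjusted p 0.031), and that call was lost on leaving out any 1 of 8 of the 12 libraries (WT OB replicates 2, 3, 4 and 5 and null OB replicates 1, 2, 3 and 6; log2 fold change -0.75 to -0.65, adjusted p up to 0.067). It was also lost in 2 of 9 other settings, with an adjusted p of up to 0.0865.

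Mmp14, the membrane-type MMP that activates Mmp2, stood low in 1 group alone. It ranged from 0.385 to 1.27 TPM (median 0.879) in WT BMM. The other myeloid groups lay at 31.6 to 51.5 TPM (median 43.7) in null BMM, 48.9 to 59.6 (median 53.7) in WT OC and 26.6 to 49.7 (median 44.6) in null OC. OB libraries ranged from 45.9 to 93.4 (median 77.7) in WT and from 70.0 to 142.6 (median 109.2) in null. Every group other than WT BMM overlapped its neighbour in the order of levels. Mmp14 rose in null BMM by 5.76 ± 0.21 on the log2 scale (edgeR adjusted p 9.0e-12), and so reached in macrophages without RANK-L a level whose range overlapped that of WT OC. It was not called in OC (-0.19 ± 0.11, edgeR adjusted p 0.14) or in OB (0.27 ± 0.21, 0.36). An offset for the trend with transcript length and GC content brought the OC difference past the threshold (-0.34, adjusted p 0.015).

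Mmp19, a secreted MMP, varied least of the 7 proteases. It ranged from 7.97 to 10.5 TPM (median 10.1) in WT BMM, 13.95 to 20.8 (median 18.0) in null BMM, 9.17 to 10.7 (median 9.87) in WT OC and 14.4 to 22.7 (median 20.5) in null OC. OB libraries ranged from 29.2 to 34.9 (median 33.5) in WT and from 37.1 to 46.8 (median 42.8) in null. Null lay above WT without overlap in all 3 cell types on this scale. In CPM the OB ranges overlapped, at 64.8 to 78.3 in WT and 72.5 to 91.2 in null. The log2 fold change was 0.98 ± 0.09 in BMM (edgeR adjusted p 2.8e-07), 1.21 ± 0.09 in OC (5.0e-09) and 0.20 ± 0.07 in OB (0.033), and the OB call was lost on leaving out any 1 of 6 of the 12 libraries (WT OB replicates 1, 2 and 4 and null OB replicates 2, 3 and 6; adjusted p up to 0.073). It was also lost in 3 of 9 other settings, with an adjusted p of up to 0.37 and a log2 fold change down to 0.088. Tmem198b on the opposite strand covers 22.3% of the Mmp19 exon bases with a mean of 285.1 counts, and whether reads were assigned by strand is not given in the sources used here, so Mmp19 values are uncertain.

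Timp1, a secreted inhibitor that also binds the Mmp9 proenzyme, had on average the second highest level of the 10 transcripts in OB. TPM ranged from 1152 to 1424 (median 1226) in WT OB and from 880.8 to 1113 (median 1043) in null OB, without overlap. In the myeloid groups it ranged from 0.257 to 0.886 TPM (median 0.434) in WT BMM, 3.42 to 6.02 (median 4.57) in null BMM, 0.342 to 1.60 (median 0.758) in WT OC and 2.98 to 8.18 (median 5.09) in null OC. Every null myeloid library exceeded every WT one, at levels that stayed under 1% of those in OB. Timp1 rose by 3.31 ± 0.29 in null BMM (edgeR adjusted p 1.1e-07) and by 2.84 ± 0.39 in null OC (6.7e-06), from 2 to 9 counts per WT BMM library and 3 to 14 per WT OC library. Counting error alone gave 95% intervals of 7.12 to 15.7 for the ratio of mean CPM in BMM and 5.62 to 10.5 in OC. In OB it fell by 0.48 ± 0.07 (edgeR adjusted p 2.3e-04). The genotype effect in OB rose with transcript length across all genes (Spearman 0.549 over 13607 genes), the 2 Timp1 transcripts are 833 and 883 bases long, and an offset for the length and GC trend left -0.18 (adjusted p 0.095).

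Timp2, which with Mmp14 forms the complex that activates Mmp2, had group means between 28.7 and 82.8 TPM. It ranged from 35.1 to 41.3 TPM (median 37.8) in WT BMM, 29.6 to 58.8 (median 39.5) in null BMM, 25.1 to 33.3 (median 28.5) in WT OC and 32.0 to 39.1 (median 35.7) in null OC. OB libraries ranged from 64.9 to 110.6 (median 81.6) in WT and from 68.4 to 90.1 (median 76.9) in null. WT and null overlapped in all 3 cell types, and OB lay above the myeloid groups. The BMM difference of 0.32 ± 0.19 was not called (edgeR adjusted p 0.18), Timp2 was higher in null OC by 0.50 ± 0.07 (1.1e-05), and in OB it was lower at -0.28 ± 0.10 (0.043), a call lost on leaving out any 1 of 9 of the 12 libraries (WT OB replicates 2, 4, 5 and 6 and null OB replicates 1 to 5; adjusted p up to 0.11) and in 4 of 9 other settings (adjusted p up to 0.146).

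Timp3, the inhibitor that stays bound to the matrix and also blocks ADAM and ADAMTS proteases, resembled Timp1. It ranged from 139.1 to 190.6 TPM (median 159.4) in WT OB and from 134.3 to 168.9 (median 148.9) in null OB, with overlap. In the myeloid groups it ranged from 0.133 to 0.974 TPM (median 0.626) in WT BMM, 0.741 to 4.30 (median 2.13) in null BMM, 0.0203 to 0.180 (median 0.0591) in WT OC and 1.68 to 2.76 (median 2.15) in null OC. The BMM genotypes overlapped and the OC genotypes did not. The null BMM libraries were uneven: Timp3 was 14.1, 10.3 and 8.85 CPM in replicates 1, 5 and 6 and 2.07, 3.82 and 4.79 CPM in replicates 2, 3 and 4. In the same order Col1a1, the main osteoblast collagen, was 96.8, 105.1 and 64.0 CPM against 36.9, 34.5 and 42.8 CPM. Timp2 ran the other way, at 75.4, 82.3 and 87.3 CPM against 173.9, 132.9 and 146.9 CPM. The part of this split in the BMM differences of Timp2 and Timp3 was not tested beyond leaving out each library in turn, which gave a Timp3 log2 fold change of 2.18 to 2.66, called each time. Timp3 rose by 2.47 ± 0.46 in null BMM (edgeR adjusted p 4.6e-04) and by 5.91 ± 0.30 in null OC (2.1e-11). The WT OC libraries held 1 to 4 counts each and 12 in all, so the ratio of mean CPM of 68.0 had a counting interval of 38.9 to 131.7. Timp3-203, annotated as a processed transcript and not as coding, held 63.2% of the Timp3 TPM in WT OC and 15.4% in null OC. In BMM it held 33.7% in WT and 4.4% in null. With so few WT counts these shares are uncertain, and the gene's sum is not a measure of coding transcripts alone. In OB it fell by 0.32 ± 0.08 (edgeR adjusted p 0.010), and a fit of all 36 libraries gave an adjusted p of 0.29. Syn3 on the opposite strand covers 21.3% of its exon bases with a mean of 33.8 counts per library, so the low myeloid levels of Timp3, at 1 to 42 counts in WT, are uncertain.

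Mmp2, Timp1 and Timp3 were high in OB and higher in null BMM and null OC than in WT. The summed stromal and osteoblast markers had the same directions. Mmp19 did too, but its medians were 60.9% and 67.2% of the WT OB mean in null BMM and null OC. Between single libraries the match was partial. In null OC replicate 6 both sums, Timp1 and Timp3 were highest, while Mmp2 was 7.34 CPM (group median 7.38). In null BMM replicate 1 the stromal sum and Timp3 were highest, and Mmp2 (6.68 CPM) and Timp1 were lowest. The osteoblast sum and Mmp2 were highest in null BMM replicate 5. The 7 stromal markers (Pdgfra, Pdgfrb, Dcn, Lum, Col3a1, Postn and Cxcl12) summed to between 0.115 and 2.28 CPM in WT BMM, with 2 of 7 above the floor and Dcn at 0, and to between 9.08 and 18.2 CPM in null BMM, with 6 of 7 above it. In WT OC they summed to between 0.382 and 0.924 CPM (3 of 7 above the floor, Postn at 0) and in null OC to between 6.43 and 40.8 CPM (6 of 7). Only 2 of the 7 stromal markers were high enough to be tested in BMM and 3 in OC. Osteoblast markers (Col1a1, Col1a2, Bglap, Alpl, Sp7, Ibsp and Runx2) summed to between 10.1 and 27.8 CPM in WT BMM and 52.3 and 127.5 in null BMM, with 3 and 5 of 7 above the floor. They summed to between 12.1 and 14.6 CPM in WT OC and 55.7 and 266.6 in null OC, with 4 and 5 of 7 above it and Bglap and Sp7 at 0 in null OC. Only 3 of the 7 were high enough to be tested, in BMM and in OC alike. Col1a1 alone was 44.5 to 180.9 CPM in null OC, and without replicate 6 the null OC sums were at most 105.5 CPM. Runx2 was 3.03 to 5.62 CPM in null OC and 4.47 to 5.57 in WT OC, and 2.50 to 4.34 in null BMM and 1.76 to 2.99 in WT BMM. Relative to the WT OB mean, the stromal sum had a median of 0.0872% in null BMM and 0.105% in null OC, and the osteoblast sum 0.118% and 0.142%. On the same scale Timp1 had a median of 0.400% in null BMM and 0.432% in null OC. Mmp2 stood higher, at 0.924% and 0.800%, and Timp3 at 1.35% and 1.21%. Each of these medians was above those of both summed lists in the same group. In WT BMM the medians were 0.256% for Mmp2, 0.0345% for Timp1 and 0.254% for Timp3. The stromal and osteoblast sums stood there at 0.0072% and 0.0304%. In WT OC the 3 genes had medians of 0.0879%, 0.0530% and 0.0148%, and the sums 0.0038% and 0.0214%. Mmp3, at a mean of 99.5 TPM in WT OB, stayed at a median of 0 in null BMM and null OC. Depth limits this value, since a share as small as that of the stromal sum could fall below the floor of 3 counts. The part of a few stromal or osteoblast cells in the null myeloid values was not tested.

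**Figure D3:**
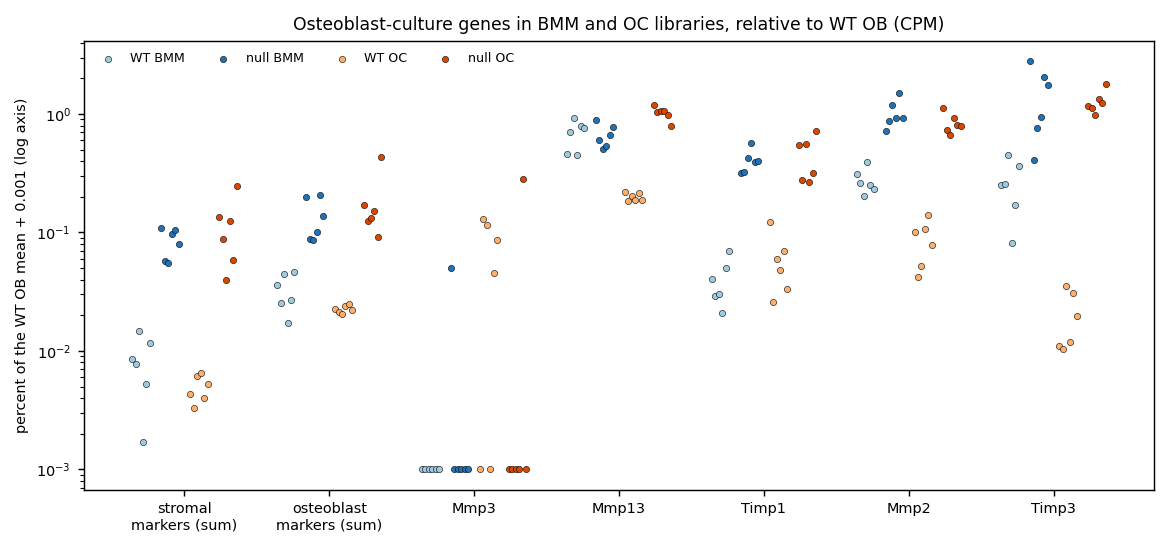
Percent of the WT OB mean (+ 0.001, log axis; CPM) in each BMM and OC library for the summed stromal and osteoblast markers and for Mmp3, Mmp13, Timp1, Mmp2 and Timp3. In null BMM and null OC the medians are 0.0872% and 0.105% for stromal markers, 0.924% and 0.800% for Mmp2, and 0 for Mmp3.

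The response to RANK-L was compared as OC against BMM within each genotype, on 24 libraries. In WT, 2 of the 9 genes tested were higher and 5 were lower in OC, beside 30.4% and 30.1% of all genes (60.5% in either direction). In null, 3 were higher and 0 lower, beside 6.78% and 6.07% (12.9% in either direction). By an unadjusted p under 0.05, Timp2 was also lower in null (edgeR p 0.038, adjusted 0.14), DESeq2 likewise called 3 higher and 0 lower, and limma-voom 2 and 0. The median log2 fold change was -0.52 in WT and 0.13 in null, against -0.003 and -0.004 over all genes.

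The 2 genes that rose in WT were Mmp9 and Mmp14, both known for osteoclasts. Mmp9 rose by 14.34 ± 0.21 in WT (edgeR adjusted p 3.6e-27) and by 0.50 ± 0.11 in null (0.0053). Mmp14 rose by 5.82 ± 0.19 in WT (edgeR adjusted p 2.0e-19) and stood at -0.13 ± 0.14 in null (0.58), where its level was already 42.8 ± 6.75 TPM (SD, n = 6) without RANK-L. Mmp12 and Mmp13 fell in WT, by 2.46 ± 0.18 (edgeR adjusted p 1.5e-11) and 1.74 ± 0.16 (2.6e-10). In null the same pair rose, by 0.72 ± 0.17 (edgeR adjusted p 0.011) and 0.62 ± 0.15 (0.010). The Mmp12 call in null was lost with limma-voom (adjusted p 0.067). Mmp2 fell in WT by 1.64 ± 0.25 (edgeR adjusted p 2.2e-06), Timp2 by 0.52 ± 0.15 (0.0035) and Timp3 by 3.64 ± 0.56 (2.7e-06), and none of these 3 was called in null. Mmp19 and Timp1 were called in neither genotype.

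**Figure D4:**
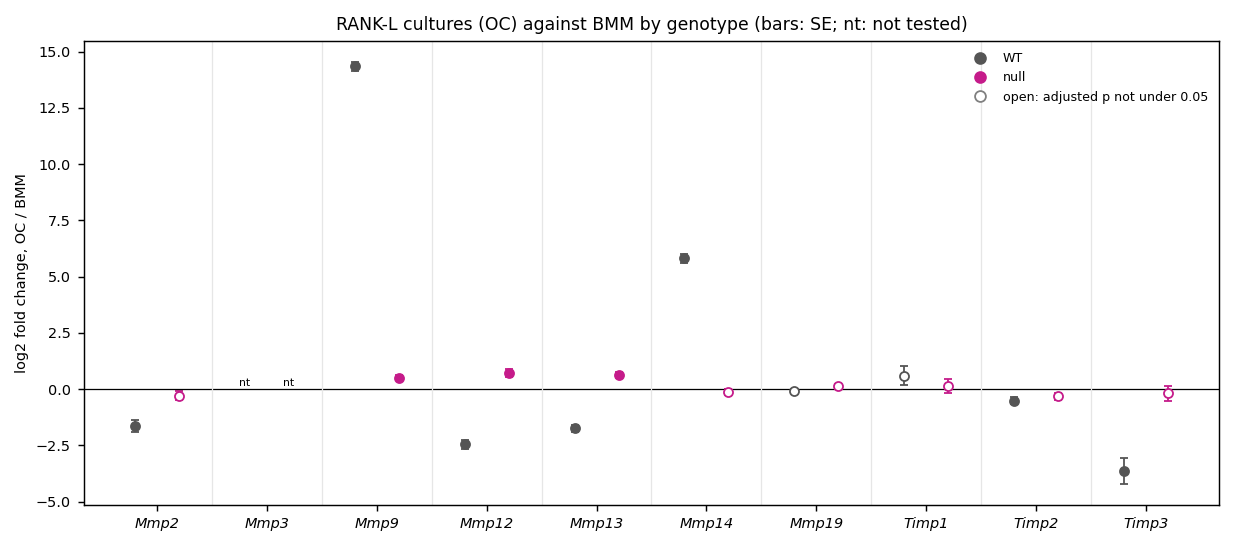
Log2 fold change of OC against BMM (points, ± SE) in WT and in null for each gene, from 1 edgeR fit of 24 libraries. Filled points were called at an adjusted p under 0.05. Mmp9 reaches 14.34 and Mmp14 5.82 in WT, while the null points lie between -0.32 and 0.72.

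The difference between the 2 responses was tested as an interaction. It was called for 6 of 9 genes, 4 higher and 2 lower in null, beside 25.3% and 26.1% of all genes (51.4% in either direction). The response in null minus that in WT was -13.84 ± 0.23 on the log2 scale for Mmp9 (edgeR adjusted p 1.3e-25) and -5.95 ± 0.24 for Mmp14 (4.7e-17). The other 4 had a more positive response in null: Mmp12 by 3.18 ± 0.25 (edgeR adjusted p 9.8e-11), Mmp13 by 2.36 ± 0.22 (6.2e-10), Timp3 by 3.45 ± 0.67 (9.1e-05) and Mmp2 by 1.35 ± 0.32 (9.6e-04). Mmp19, Timp1 and Timp2 missed the threshold. The osteoclast marker list moved with these results: 7 of 7 rose with RANK-L in WT (median log2 fold change 9.73), 5 of 7 in null (median 1.99), and 6 of 7 had a lower response in null.

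Across cell types in WT, 9 of the 10 genes were higher in OB than in BMM and 1 was lower, beside 41.5% and 35.3% of all genes (76.8% in either direction). Against OC, 8 were higher in OB and 2 lower, beside 41.3% and 36.7% (77.9%). The median log2 fold changes were 7.84 and 5.36, and they were the same with Mmp3 at its bound. Mmp12 was lower in OB than in BMM by a log2 fold change of -3.20 ± 0.23 (edgeR adjusted p 1.1e-14) and lower than in OC by -0.74 ± 0.21 (0.0021). Mmp9 was higher in OB than in BMM by 11.38 ± 0.24 (edgeR adjusted p 1.0e-30) and lower than in OC by -2.96 ± 0.14 (4.4e-20). The largest difference from OC was that of Timp3, at 12.20 ± 0.41 (edgeR adjusted p 1.4e-23). Mmp13 was higher in OB by 7.18 ± 0.25 over BMM and 8.91 ± 0.27 over OC, Mmp2 by 8.50 ± 0.18 and 10.14 ± 0.21, and Timp1 by 11.22 ± 0.23 and 10.65 ± 0.22. The OB libraries carry the osteoclast and macrophage markers given above and the part of those cells in the Mmp9, Mmp12 and Mmp14 levels of OB was not tested.

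The genotype effect in OB was set against that in OC in a fit of all 36 libraries. It was called as different for 8 of 10 genes, 1 higher and 7 lower in OB, beside 27.8% and 27.4% of all genes (55.2% in either direction). Mmp9 was the gene with the more positive effect in OB, by 5.41 ± 0.20 (edgeR adjusted p 1.4e-22). Timp3 differed by -6.21 ± 0.57 (edgeR adjusted p 3.3e-11), Timp1 by -3.27 ± 0.31 (2.3e-11), Mmp2 by -3.05 ± 0.25 (6.2e-13), Mmp13 by -2.74 ± 0.29 (8.4e-10) and Mmp12 by -2.06 ± 0.30 (4.3e-07). Mmp19 (-0.998 ± 0.12) and Timp2 (-0.77 ± 0.20) were also lower, and Mmp14 was not called (0.47 ± 0.24, edgeR adjusted p 0.094). Mmp3 was not called, at -0.10 ± 4.66 (edgeR adjusted p 1.00), with at most 5 counts in any OC library.

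The makeup of the 10 transcripts differed by group. Mmp12 made up 90.4% ± 2.29 of their summed TPM in WT BMM (SD, n = 6), 59.7% ± 6.90 in null BMM and 68.1% in null OC on average, whereas Mmp9 made up 95.4% in WT OC. In WT OB Mmp13 made up 37.8% and Timp1 27.9%. The 7 MMPs summed to 662.4 ± 206.1 TPM in WT BMM, 529.5 ± 93.5 in null BMM, 4773 ± 583.3 in WT OC and 832.2 ± 104.9 in null OC (SD, n = 6). The 3 TIMPs summed to 29.6 to 48.5 TPM on average in these groups, against 1500 ± 84.5 in WT OB and 1255 ± 89.4 in null OB. The ratio of summed MMP to summed TIMP TPM was 17.0 ± 5.70 in WT BMM, 11.7 ± 4.39 in null BMM, 161.2 ± 13.5 in WT OC, 19.6 ± 3.02 in null OC, 2.04 ± 0.41 in WT OB and 2.72 ± 0.36 in null OB. WT OC libraries, at 137.1 to 171.7, lay above all others, and the WT and null ranges overlapped in BMM and in OB. The ratio compares transcripts and is no measure of protease activity.

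**Figure D5:**
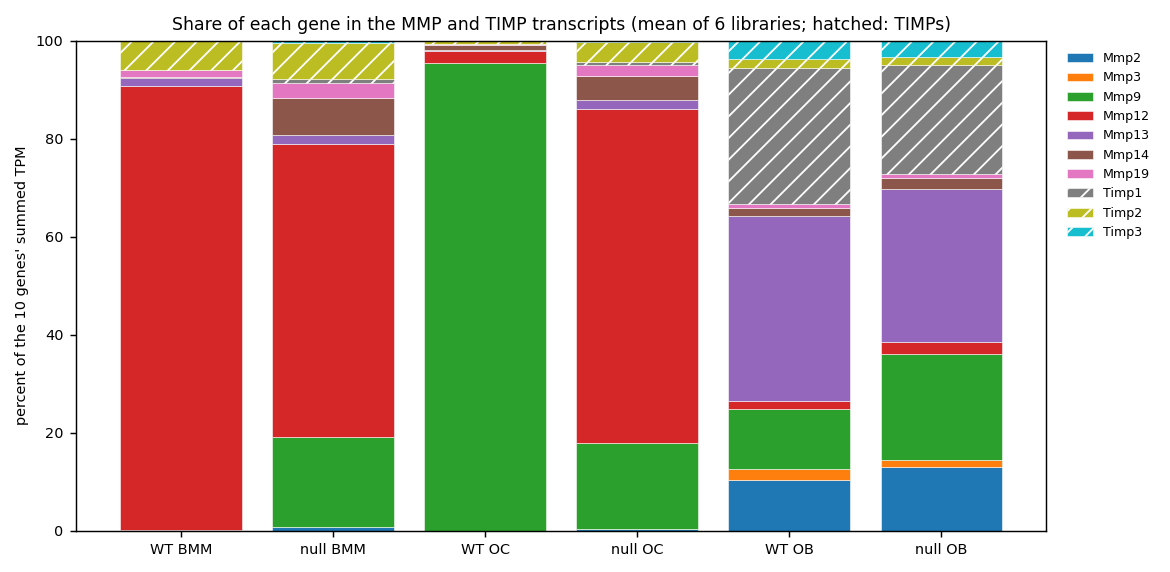
Mean share of each gene in the summed TPM of the 10 genes, in percent, for each group (6 libraries; hatched bars are TIMPs). Mmp12 fills most of the bar in BMM and null OC, Mmp9 fills 95.4% in WT OC, and Mmp13 and Timp1 are the largest shares in WT OB.

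Other genes of the pathway were read from 3 lists. Of the remaining 16 MMPs and Timp4, 5 were high enough to be tested in BMM (1 higher and 1 lower in null), 5 in OC (5 higher) and 11 in OB (2 higher and 2 lower). Over all genes tested 27% were called higher and 25.4% lower in BMM, 32.4% and 33.1% in OC, and 15.5% and 16.9% in OB. Mmp8, the neutrophil collagenase that lies in the chromosome 9 cluster, averaged 13.6 ± 0.99 TPM in WT BMM and 121.5 ± 13.7 in null BMM, and 9.01 ± 0.66 in WT OC and 153.6 ± 16.2 in null OC (SD, n = 6). It was higher in null by 3.30 ± 0.07 in BMM (edgeR adjusted p 1.0e-14) and by 4.29 ± 0.08 in OC (1.6e-16). Mmp27, its neighbour, had log2 fold changes of -1.08 ± 0.14 in BMM (edgeR adjusted p 8.3e-06), 0.97 ± 0.10 in OC (2.3e-07) and -1.13 ± 0.16 in OB (1.4e-04). Mmp12 had the same signs as Mmp27 in BMM and OC. Mmp24, a membrane-type MMP, was lower in null OB by a log2 fold change of -0.32 ± 0.08 (edgeR adjusted p 0.0073). It was higher in null OC by 0.61 ± 0.11 (edgeR adjusted p 9.1e-05) and not called in BMM (0.20 ± 0.12, 0.19).

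Among 18 activators, cofactors and other inhibitors, 4 of 9 tested were higher and 4 lower in null BMM, 2 of 8 higher and 4 lower in null OC, and 4 of 14 higher and 1 lower in null OB, beside the same shares of all genes (27% higher and 25.4% lower in BMM, 32.4% and 33.1% in OC, 15.5% and 16.9% in OB). Lcn2, lipocalin-2, which binds Mmp9 and shields it from breakdown, held 0 to 2 counts in each WT BMM library and 0 to 1 in each WT OC library, and ranged from 12.1 to 23.0 TPM in null BMM (at least 119 counts) and from 10.8 to 18.3 TPM in null OC (at least 87 counts). It was called higher in null in both (edgeR adjusted p 1.0e-10 in BMM and 1.3e-11 in OC), and no fold is given against so few counts. Cd44, a hyaluronan receptor that docks Mmp9 and Mmp14 at the cell surface, was lower by -0.90 ± 0.07 in null BMM (edgeR adjusted p 1.9e-08) and by -1.502 ± 0.06 in null OC (8.9e-13), and higher by 0.36 ± 0.06 in null OB (2.4e-04). Lrp1, an endocytic receptor that clears MMPs, was higher in null OB by 0.73 ± 0.08 (edgeR adjusted p 1.3e-05). It was lower in null BMM at -1.16 ± 0.11 (edgeR adjusted p 1.9e-07) and not called in OC (0.13 ± 0.07, 0.12).

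Of 20 ADAM and ADAMTS metalloproteinases, the families that Timp3 also inhibits, 2 of 10 tested were higher and 3 lower in null BMM. In null OC 9 of 14 were higher and 2 lower, and in null OB 8 of 19 were higher and 3 lower. The shares of all genes called higher and lower were 27% and 25.4% in BMM, 32.4% and 33.1% in OC and 15.5% and 16.9% in OB. Their median log2 fold changes were -0.12, 0.78 and 0.37. Adam8 had log2 fold changes of -0.86 ± 0.09 in BMM (edgeR adjusted p 8.1e-07), 1.02 ± 0.06 in OC (3.6e-10) and -0.37 ± 0.11 in OB (0.022). Adam15 was higher in null OC by 1.85 ± 0.07 (edgeR adjusted p 2.8e-13) and lower in null OB at -0.19 ± 0.07 (0.033). Adam17, the shedding protease of TNF, was higher in null BMM by 0.59 ± 0.05 (edgeR adjusted p 2.0e-07). Adamts12 and Adam19 were higher in null OB by 0.73 ± 0.12 and 0.59 ± 0.11 (edgeR adjusted p 2.8e-04 and 0.0012).

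For each gene other than Mmp12 the 2 nearest patterns were sought among 8926 other genes, by Pearson's r of log2(CPM + 1) over the 36 libraries, which share 6 groups, so r mainly reflects the group levels. Mmp9 was nearest to Sdc1 (0.989) and Src (0.956), a kinase needed by resorbing osteoclasts. Mmp2 was nearest to Serpinf1 (0.996) and Col5a2 (0.996), Mmp13 to P4ha1 (0.992) and Qsox1 (0.991), Timp1 to Smoc2 (0.996) and Cnn3 (0.996), and Timp3 to Sparc (0.994) and Serpinh1 (0.994). Mmp3 was nearest to Kcne4 (0.998) and Tmem45a (0.997), Mmp14 to Tsku (0.947) and Epn2 (0.939), Mmp19 to Cyp2j6 (0.978) and Epb41l3 (0.976), and Timp2 to Rabac1 (0.947) and Bet1l (0.941). Among the 10 genes, Mmp2, Mmp13, Timp1 and Timp3 were within 0.981 to 0.990 of one another, Mmp9 was nearest to Mmp14 (0.898), and Mmp12 was negatively related to each of the others.

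Within single groups, 8 relations were tested over the 6 libraries with exact permutation tests on log2(CPM + 1), two-sided, adjusted over the 8. Mmp12 and the neighbouring Mmp13 were related in WT BMM, with a Pearson r of 0.90 (exact permutation p 0.021, adjusted 0.083) and a Spearman rho of 1 (exact p 0.0028, the smallest it can give, adjusted 0.011), and r was 0.76 without the 2 libraries farthest from the Mmp12 median. In null BMM, WT OC and null OC their r was 0.65, 0.44 and -0.42 and rho 0.26, 0.60 and -0.37, each with an adjusted exact p of at least 0.27. Mmp14 and the osteoclast protease gene Ctsk were related in null OB (r 0.92, exact permutation p 0.013, adjusted 0.083; rho 1, exact p 0.0028, adjusted 0.011; r 0.86 without the 2 farthest) and had r 0.33 and rho 0.14 in WT OB (exact p 0.58 and 0.80). Mmp9 and Ctsk had r of 0.76 in WT OB and 0.79 in null OB (exact permutation p 0.10 and 0.076, adjusted 0.21 and 0.20), and the null OB value was -0.23 without the 2 farthest libraries. Their ranks gave rho 0.49 and 0.60 (exact p 0.36 and 0.24).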

How the data were processed

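RNA was extracted with the mirVana kit and made into libraries with an NEB low-input kit, per the labels' protocols, which name no batch or date. Per the submitters' processing notes the tools were kallisto and DESeq2 and the build GRCh38, although the transcript identifiers are those of mouse; versions and annotation are not given in the sources used here. Per the file headers, the authors deposited an estimated count, a TPM value, a length and an effective length for each transcript of each library. The effective length was at most 199 bases under the length. Lengths and effective lengths were identical in all libraries, so no library-specific fragment length entered the authors' TPM.

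Of 88198 transcripts, 97.5% were matched by identifier to GENCODE M21 (GRCm38). The rest held 0.63% to 0.97% of a library's counts and were left out. Estimated counts were summed by gene and rounded. After filterByExpr and TMM scaling, genes were tested by the robust quasi-likelihood method of edgeR 4.0.16 (R 4.3.3, limma 3.58.1). Each genotype comparison used the 12 libraries of its cell type, the RANK-L response 24 and comparisons across cell types all 36. SE was derived from the F statistic. P-values were adjusted over all genes tested. A floor of 3 counts per library was used for bounds; floors and Poisson intervals allow for counting error and nothing else, because without molecular identifiers several reads can stem from 1 molecule. The closest pair of libraries in a group (chi-square of 3.46 per gene) differed by more than sampling noise. The fits were tested on simulated counts with a biological coefficient of variation of 15%, the same for every gene. Only genes above a minimum mean count were changed, and the other genes had the same mean in all groups. The rates of recovery therefore do not extend to groups with few counts, such as Mmp9 in WT BMM or Timp3 in WT OC. Of 100 genes changed 1.5-fold, 31 were recovered for the RANK-L interaction and 37 for the OB against OC genotype difference. The other comparisons recovered 78 to 89. Genes not called in those tests may therefore still differ. At 2-fold 97 to 100 of 100 were recovered, with 3 to 17 false calls in a fit.

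All 10 genes are reported, with the 2 genes of smallest p in each other list and genotype comparison (mean of at least 1 CPM), and the 2 genes nearest in pattern (mean of at least 10 CPM); those of Mmp12 are not reported here. The genes and lists were chosen with earlier results of these data known. The fits were repeated with DESeq2 1.42.0, with limma-voom and quality weights, with RLE scaling, without a filter or with a minimum mean of 10 counts, with the replicate number as a block, with offsets for average transcript length and for the lowess trend (span 0.3) with length and GC content, on all 36 libraries at once, and without each library in turn. Promoters and miRNA sequences come from RefSeq (GRCm38.p6), 3′ UTRs from GENCODE M21.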

Additional observations from a re-analysis of the deposited data

Results flagged for a closer look

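Within groups of 6 libraries, the gap of the highest or lowest library to its neighbour was compared with the range of the group. Of 60 groups of values (10 genes in 6 groups), 6 exceeded Dixon's 95% limit, and chance gives about 1 in 20. Mmp9 stood at 131.6 TPM in null BMM replicate 6. Mmp13 stood at 12.4 TPM in null OC replicate 6. Mmp19 stood at 7.97 TPM in WT BMM replicate 5 and at 14.4 TPM in null OC replicate 3. Mmp3 stood at 0.0504 TPM in null BMM replicate 1 and at 0.292 TPM in null OC replicate 5, where the other libraries were at 0, and these values are at most 5 counts.

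The RANK-L response differed between genotypes by a tested interaction (log2 difference, null minus WT) for Mmp2 (1.35), Mmp9 (-13.84), Mmp12 (3.18), Mmp13 (2.36), Mmp14 (-5.95) and Timp3 (3.45). The genotype effect differed between OB and OC (log2 difference, OB minus OC) for Mmp2 (-3.05), Mmp9 (5.41), Mmp12 (-2.06), Mmp13 (-2.74), Mmp19 (-0.998), Timp1 (-3.27), Timp2 (-0.77) and Timp3 (-6.21).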

How the results depend on the processing

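Over the 9 comparisons 65 gene calls were made, and 59 stayed past the threshold in every alternative. Of the 59 calls outside the OB genotype comparison 58 did so, the exception being Mmp12 in the null RANK-L response (limma-voom, adjusted p 0.067). No called value changed sign. In the OB genotype comparison 6 genes were called; 3 were called with the length and GC trend offset and 3 in 1 fit of all 36 libraries, and leaving out 1 library gave 3 to 6. It gave 3 without WT OB replicate 2 or 4 or null OB replicate 2 or 3. Genes called in OB over the whole table fell from 4420 to 2290 with the trend offset. Genes called in the null RANK-L response fell from 1628 to 1013 with limma-voom and ranged from 810 to 2143 on leaving out 1 library. They were 840, 810 and 948 without null BMM replicates 2, 3 and 4 and 1046 without null OC replicate 3. The cause was not tested.

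Signs changed only for differences that had not been called. In the null RANK-L response, limma-voom gave -0.24 for Timp1 and 0.066 for Timp3. On leaving out 1 library Timp1 ranged from -0.062 to 0.25 and Timp3 from -0.38 to 0.10. Mmp13 in BMM ranged from -0.14 to 0.038 on leaving out 1 library. The trend offset gave -0.046 for the Timp2 interaction. For Mmp3, the OB against OC genotype difference was 0.041 with limma-voom and ranged from -0.46 to 2.91 on leaving out 1 library.

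With the replicate number as a block, the count of genes of the family called was the same in all 9 comparisons, for example 7 in BMM, 8 in OC and 6 in OB. Libraries of the same number did not deviate together between WT and null (correlations from -0.20 to 0.01 in BMM, -0.10 to 0.02 in OC and -0.12 to 0.15 in OB, where 2 of 6 libraries were closest to their own number), nor between BMM and OC (-0.05 to 0.09 in WT, where 3 of 6 were closest to their own number, and -0.20 to 0.06 in null, where 1 of 6 was), so the numbers were not treated as pairs. Depth limits the lowest values most, namely Mmp9 in WT BMM, Timp1 and Timp3 in the WT myeloid groups and Mmp3 outside OB.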
